A study of Trichoderma reesei with 11 samples.

Results

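The 280 gene IDs described here stand at the ends of the ID series under which RNA of Trichoderma reesei was counted, a mould known for the cellulases that it secretes. The count table names 10876 IDs by Tr, a letter from A to G, a 4-digit serial number and the letter W or C. Within each of the 7 lettered series the first 20 and the last 20 serial numbers were taken, which gives 14 ends and 2.57% of the 10879 IDs in the table. The series held 2149 IDs for A, 1977 for B, 1580 for C, 1443 for D, 1307 for E, 1211 for F and 1209 for G, each numbered from 1 without a gap. The W or C suffix was nearly balanced at the ends, with W in 47.1% of end IDs and in 49.4% of the remaining 10596 IDs.

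The form of the IDs resembles the systematic names of yeast genes, in which a letter stands for a chromosome and the serial number for the order along it. T. reesei QM6a is known to have 7 chromosomes. Neither the labels nor the table ties a letter to a chromosome, so the 280 are called end IDs here and not genes of chromosome ends. As background, the regions next to the telomeres of fungal chromosomes are known to be packed in silent chromatin in many species. In filamentous fungi such regions are often rich in genes for secondary metabolites and in genes that vary between strains, and these genes are commonly switched on only under particular conditions. Light is known to steer development, secondary metabolism and cellulase production in Trichoderma. The HOG pathway is a chain of MAP kinases that lets yeast respond to high osmolarity, and it is known in other filamentous fungi to carry signals from stress and from light.

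Both strains carry a deletion of mus53, which favours targeted gene replacement by removing a step of non-homologous DNA end joining. The parent strain is QM6a-delta-mus53, and the deletion strain, QM6a-delta-mus53-delta-57513, additionally lacks TR_57513, named in the series title as a MAPKKK of the HOG pathway. Mycelium of both was grown with cellulose for 96 h at 28 °C, either constantly lit or constantly dark. The groups were the parent in darkness with 2 libraries, the deletion strain in darkness with 3, the parent in light with 3 and the deletion strain in light with 3. Library totals ran from 13790024 to 18278047 counts in darkness and from 8020351 to 10184280 in light. The labels number the dark libraries consecutively and the light libraries in a separate range of numbers, and they name no batch. A light effect and a batch that followed these ranges cannot be told apart, while strain comparisons lie within a range. Whether the deletion strain is a single transformant is not given in the sources used here. No ID of the table matched a RefSeq gene table of T. reesei, which does hold a locus tag of the deleted gene, so the files do not pair IDs with names, the deleted gene could not be checked, and no sequence or function is given for any end ID.

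End IDs had low levels and were often without a read. Levels are in CPM, counts scaled to a common library total with TMM factors, averaged over the 4 group means. CPM values are not divided by gene length, which the table does not give, so they compare libraries more safely than IDs. The median level was 1.55 CPM for the 280 end IDs, with quartiles of 0.156 and 10.5 CPM, and 23.9 CPM for the remaining IDs, with quartiles of 2.52 and 83.9 CPM. A level below 1 CPM was found for 126 end IDs, 45% of them, and for 20.1% of the remaining IDs. At the other extreme, 10 end IDs, or 3.57%, averaged at least 100 CPM, against 21.7% of the remaining IDs.

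No count in any of the 11 libraries was recorded for 32 end IDs, 11.4% of the 280 (95% Wilson interval 8.21% to 15.7%), and for 2.67% of the remaining IDs. A floor of 3 counts corresponds to 0.0228 CPM over all libraries and to 0.179 to 0.364 CPM in a single one. The interval treats the IDs as independent draws, which neighbouring IDs need not be, and does not measure a spread between libraries. The floors cover counting error only. How the counting treated reads with several equally good matches is not given in the sources used here, so an ID at 0 is not shown to be untranscribed. IDs at 0 occurred at 11 of the 14 ends and were most numerous at the start of series F, where all 11 IDs with serial numbers 1 to 11 were at 0. Without that end, 21 of 260 end IDs were at 0, or 8.08%.

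Most of the IDs at 0 lay at the outermost places. Of the 14 IDs that begin or close a series, 8 had no count in any library, and the same held for 5 of the 14 IDs in the second place and for 2 of 14 in the third. Counted from the nearer end, the share at 0 was 25.7% at places 1 to 5, 15.7% at places 6 to 10 and 2.14% at places 11 to 20. It was 2.5% at places 21 to 40 and 2.51% beyond place 200. The start of series F, with places 1 to 11 all at 0, weighs on the shares up to place 20. The median level increased over a longer stretch, from 0.804 CPM at places 1 to 5 through 1.24 and 1.84 CPM to 4.59 CPM at places 21 to 40, 11.1 CPM at places 41 to 60 and 28.9 CPM beyond place 200. At places 61 to 80, 81 to 100 and 101 to 200 it was 10.7, 13.5 and 12.5 CPM. The median level thus increased past the 20th place, with little change between places 41 and 200. The limit of 20 IDs per end was a definition that matches no step in the data.

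**Figure D1:**
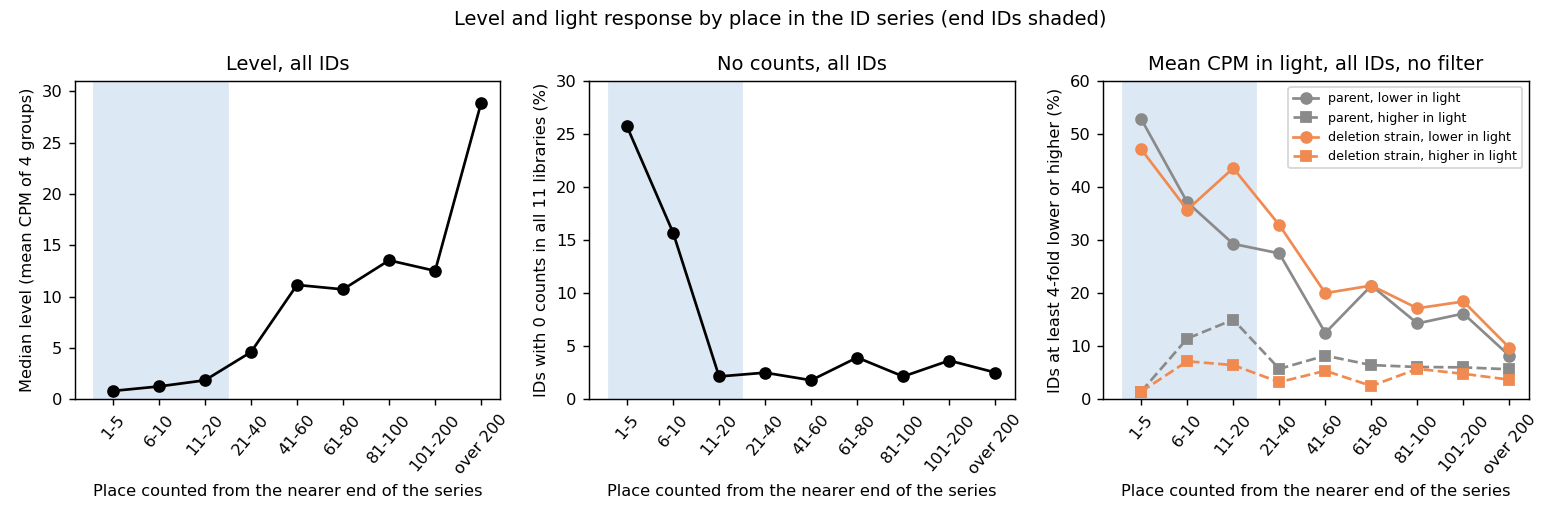
Median level (left, CPM), percentage of IDs without counts in all 11 libraries (middle) and percentage of all IDs, with no filter, whose mean CPM in light was at least 4-fold lower or higher than in darkness (right), against the place counted from the nearer end of the series. End IDs, at places 1 to 20, are shaded. The level increases from 0.804 CPM at places 1 to 5 to 28.9 CPM beyond place 200, and the share at least 4-fold lower in light goes from 52.9% to 8.18% in the parent and from 47.1% to 9.68% in the deletion strain.

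At several ends 1 ID carried most of the counts. TrG1206C, TrD1440W and TrG1195C had the highest mean levels. TrG1206C made up 75.5% of the summed CPM of the 20 IDs that close series G, and TrD1440W 73.5% of those that close series D. TrG0019C made up 72.8% at the start of series G, and TrC0012W 62.7% at the start of series C. TrC0012W was higher in every light library than in every dark library of its strain, at 144 and 125 CPM in the parent in darkness, 136, 173 and 176 in the deletion strain in darkness, 198, 178 and 163 in the parent in light and 227, 236 and 242 CPM in the deletion strain in light.

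The share of library counts that fell on end IDs differed between dark and light libraries in both strains. In darkness it was 1.14% and 0.877% in the parent and 0.867%, 2.76% and 2.46% in the deletion strain. In light it was 0.224%, 0.264% and 0.304% in the parent and 0.496%, 0.533% and 0.654% in the deletion strain. Every dark library lay above every light library. The strains did not overlap in light. In darkness they overlapped, because deletion replicate 1 lay just below both parent libraries while the other deletion replicates lay far above them. The group means were 1.01% ± 0.183 (SD, n = 2) and 2.03% ± 1.02 (SD, n = 3) in darkness and 0.264% ± 0.0397 and 0.561% ± 0.0823 (SD, n = 3 each) in light, and the mean of the deletion strain in darkness was 2.61% without deletion replicate 1. In bulk RNA, fewer cells that transcribe a gene and less RNA per cell cannot be told apart.

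Without the 3 most abundant end IDs, the difference between dark and light libraries was smaller and still free of overlap. The remaining 277 made up 0.458% and 0.425% of counts in the parent in darkness, 0.478%, 0.918% and 0.885% in the deletion strain in darkness, from 0.216% to 0.218% for the parent in light and from 0.232% to 0.246% for the deletion strain in light. The 3 IDs left out had been chosen after their values were seen.

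**Figure D2:**
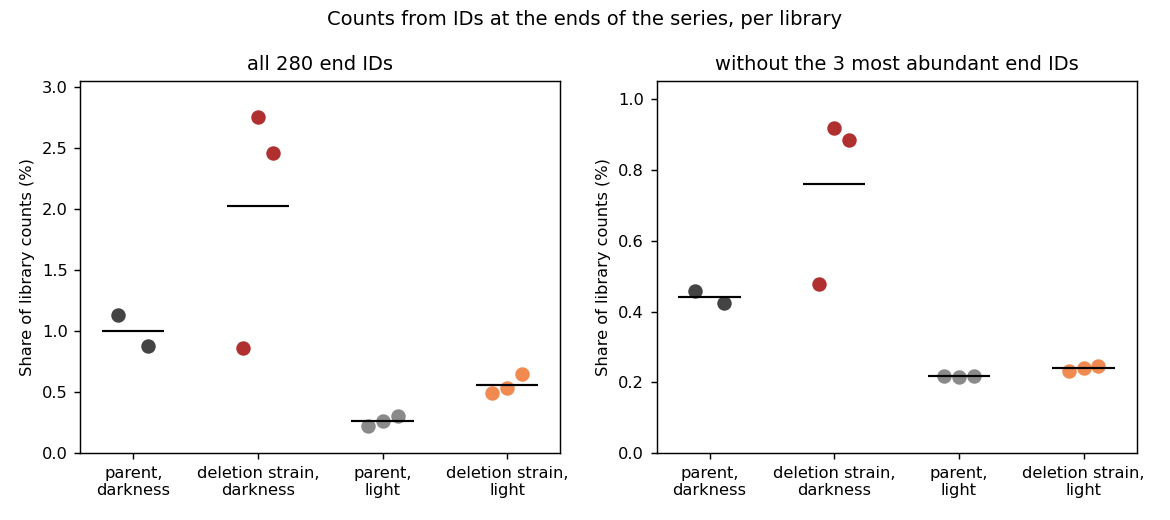
Share of each library's counts that fell on the 280 end IDs (left) and on the end IDs without the 3 most abundant (right), in percent. Points are libraries and lines are group means. All 5 dark libraries lie above all 6 light libraries in both panels, and deletion replicate 1 in darkness, at 0.867% on the left, lies below the other replicates of its group.

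Fewer end IDs were detected in light also at equal depth. With each library reduced by calculation to 8020351 counts, the expected share of end IDs with at least 1 count was 71.4% and 71.5% for the parent in darkness and between 77.1% and 78.3% for the deletion strain. In light it lay between 55.4% and 58.2% for the parent and between 58.5% and 64.6% for the deletion strain. In the parent the remaining IDs were detected at 88.3% to 88.5% in darkness and 85.8% to 86.8% in light. In the deletion strain they were detected at 90.4% to 90.7% and 88.5% to 88.7%. Dark and light libraries of a strain thus overlapped neither for end IDs nor for the remaining IDs, and the drop in light was smaller for the remaining IDs.

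**Figure D3:**
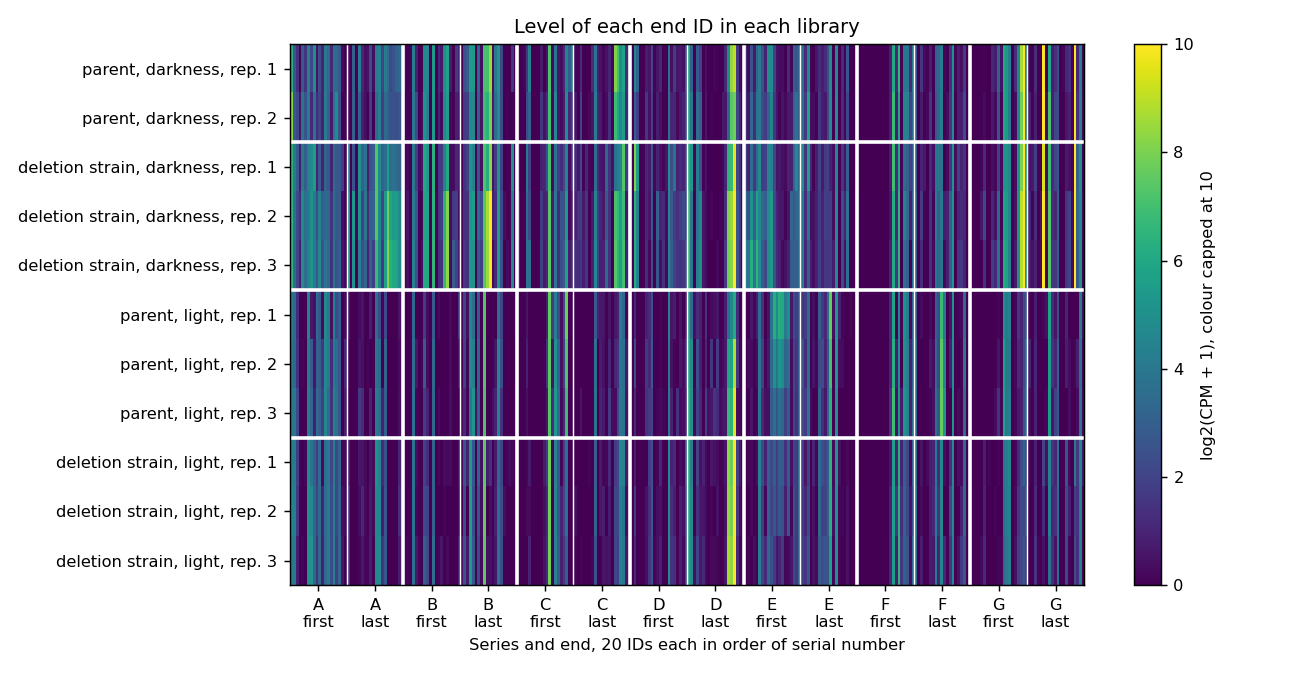
Level of each of the 280 end IDs (columns, 20 per series end in order of serial number) in each of the 11 libraries (rows), as log2(CPM + 1). The brightest columns at both ends of series G are far lower in all light libraries, and the first 11 columns of series F are at 0 in every row.

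In the parent, more end IDs were lower than higher in light. Over all 280 end IDs, with no filter, the mean CPM was lower in light for 161, higher for 74 and at 0 in both conditions for 45. Among the remaining IDs 47.5% were lower and 47.6% higher. A mean at least 4-fold lower in light was found for 37.1% of end IDs and 10.4% of the remaining IDs, and a mean at least 4-fold higher for 10.7% and 5.79%. Of 135 end IDs with an average of at least 1 CPM in darkness, 18 were at 0 counts throughout the light libraries, or 13.3%, against 0.964% of such remaining IDs. The converse, at least 1 CPM in light and 0 counts in darkness, was seen for 0 of 97 end IDs and for 0.0622% of such remaining IDs. For the end IDs this allows a share of up to 3.09%, if the IDs are taken as independent draws.

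Of the 280 end IDs, 189 (67.5%) passed the filter on low counts, against 83.5% of the remaining IDs. The filter favours IDs that are high in at least 1 group: 187 end IDs passed when only the dark libraries were considered and 101 when only the light libraries were, against 83.4% and 77.1% of the remaining IDs. Counts over the 189 are therefore descriptions of those tested, not of all end IDs. In the parent, 102 of the 189 (54.0%) differed between light and darkness by edgeR's quasi-likelihood test at an adjusted p under 0.05, where 38.7% of all 9040 tested IDs did. Of these, 74 fell in light and 28 rose. The falling ones were 39.2% of the tested end IDs, against 20.4% of all tested, and the rising ones 14.8% against 18.3%. The median log2 fold change was -1.08 for the tested end IDs and 0.00 for all tested IDs. CPM ranges did not overlap for 134 of the 189, or 70.9%, where 60.5% of all tested IDs had ranges apart. Without either of the 2 parent libraries in darkness the numbers were lower, with 69 end IDs passing without replicate 1 and 71 without replicate 2, of which 52 and 54 fell. The share of all tested IDs that passed was also lower in those fits, at 25.7% and 27.2%, where 34.7% and 35.3% of end IDs did. With voom 39.2% of end IDs and 35.1% of all tested IDs passed, and 50 end IDs fell. With no filter 74 of 248 end IDs fell and 30 rose, where 17.3% and 14.8% of all IDs did.

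TrG1206C and TrB1968W fell most in the parent, counting only end IDs whose groups did not overlap and averaged 5 CPM or more. The IDs named for the other comparisons were chosen in the same way. TrG1206C stood at 5098 and 3569.8 CPM in darkness and at 0, 0.121 and 0 CPM in light. This is 1 count in 3 light libraries against 127470 counts in 2 dark ones, and the ratio of darkness to light had a 95% counting interval from 20466 to 4504120 (edgeR adjusted p = 4.94e-05). TrB1968W stood at 378 and 252 CPM in darkness and had 0 counts in the 3 light libraries, which with 3 counts set as the limit for the group makes it at least 2731-fold lower (edgeR adjusted p = 0.000234). In the deletion strain the same IDs stood at 2678 to 13307 and 311 to 1142 CPM in darkness. There they kept low levels in light, at 14.5, 2.52 and 4.04 CPM for TrG1206C and 1.71, 0.303 and 0.415 CPM for TrB1968W.

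TrF1202W and TrE0013C rose most in the parent. TrF1202W went from 0.129 and 0.0733 CPM in darkness, 3 counts in all, to 16.9, 24.5 and 39.7 CPM in light, a ratio of 263 with a 95% counting interval of 89.6 to 1279 (edgeR adjusted p = 0.00138). TrE0013C went from 0.259 and 0.0733 CPM to 73.2, 37.4 and 11.5 CPM, a log2 fold change of 7.81 with an SE of 1.23 (edgeR adjusted p = 0.00134). Its light libraries spread widely, and with voom its change missed the threshold (limma adjusted p = 0.0862, the highest among its alternatives). In the deletion strain TrF1202W stayed between 0 and 1.14 CPM in all 6 libraries, and TrE0013C reached 6.49, 5.76 and 1.04 CPM in light.

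In the deletion strain, too, more end IDs were lower than higher in light. Over all 280 end IDs the mean CPM was lower in light for 184, higher for 60 and at 0 in both for 36, while 49.5% of the remaining IDs were lower and 47.2% higher. At least 4-fold lower were 42.5% of end IDs and 12.2% of the remaining IDs, and at least 4-fold higher 5.36% and 3.88%. Of 172 end IDs at 1 CPM or more in darkness, 17 were at 0 counts throughout the light libraries, or 9.88%, where 0.865% of such remaining IDs were. Of the 189 tested, 128 passed, or 67.7%, where 43.0% of all tested IDs did. Among them 105 fell and 23 rose. The falling ones were 55.6% of the tested end IDs against 22.7% of all tested, and the rising ones 12.2% against 20.3%. The median log2 fold change was -1.81, against -0.01 for all tested IDs. Ranges did not overlap for 146 of 189, or 77.2%, against 59.8% of all tested. Leaving out single libraries left between 82 and 108 end IDs falling among 176 to 201 tested, with 82 and 88 without deletion replicates 2 and 3 in darkness, where 17.0% to 23.6% of all tested IDs fell. With no filter 111 of 248 end IDs fell and 21 rose, where 19.7% and 16.7% of all IDs did.

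TrA2144C and TrA2145W, neighbours near the end of series A, fell most in the deletion strain. TrA2144C stood at 40.3, 225 and 285 CPM in darkness and had 0 counts in the 3 light libraries, at least 1872-fold lower (edgeR adjusted p = 0.00258). TrA2145W stood at 11.2, 63.6 and 81.1 CPM in darkness and likewise had 0 counts in light, at least 531-fold lower (edgeR adjusted p = 0.00413). Both were lowest in deletion replicate 1, both had 0 counts in the parent in light, and neither passed with voom, where the limma adjusted p was 0.0701 and 0.0766, the highest value in any alternative.

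TrE1298C and TrE1294W rose most in the deletion strain, and both lie at the end of series E. TrE1298C went from 1.01, 2.64 and 2.28 CPM in darkness to 88.0, 75.4 and 51.6 CPM in light, a log2 fold change of 5.18 with an SE of 0.45 (edgeR adjusted p = 4.63e-05). TrE1294W went from 3.16, 2.45 and 2.74 CPM to 9.55, 9.39 and 6.01 CPM, a log2 fold change of 1.58 with an SE of 0.30 (edgeR adjusted p = 0.00254). For both, every light library lay above every dark library of the strain.

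The light calls of the strains shared most of their falling end IDs. Of the end IDs tested, 63 fell in both strains, which is 85.1% of the 74 that fell in the parent and 60% of the 105 that fell in the deletion strain. Over all tested IDs, 61.9% and 55.6% of the falling lists were shared. These portions stand on unequal bases, because 55.6% of tested end IDs fell in the deletion strain, against 22.7% of all tested IDs. In the parent 39.2% fell, against 20.4%. Whether end IDs shared more than these bases give was not tested. In both strains 15 end IDs rose, 53.6% and 65.2% of the rising lists, where 56.4% and 51.0% were shared over all tested IDs. Of the 189 tested end IDs 3 passed with opposite directions and 40 passed in neither, and of all 9040 tested IDs 126 and 3858 did. The light comparisons share no library, but a batch common to the light libraries of both strains would enter both.

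By place, with no filter, IDs with a mean at least 4-fold lower in light were most frequent at places 1 to 5. They were 52.9% of the 70 IDs there in the parent and 47.1% in the deletion strain, and those at least 4-fold higher were 1.43% in each. At places 6 to 10 the lower shares were 37.1% and 35.7%, at places 11 to 20 they were 29.3% and 43.6%, and at places 21 to 40 they were 27.5% and 32.9%. Between places 41 and 200 they did not decline steadily, at 12.5% to 21.4% in the parent and 17.1% to 21.4% in the deletion strain. Beyond place 200 they were 8.18% and 9.68%. The light libraries were shallower and the outermost IDs low, so IDs with few counts reach 0 more easily in light, and the part of depth and level in these shares was not tested. Of the 70 IDs at places 1 to 5, 37 were tested, of which 25 fell in the parent and 28 in the deletion strain, or 67.6% and 75.7%, against 20.4% and 22.7% of all tested IDs. Their median level was 0.441 CPM in the parent in darkness and 0 CPM in light, so many could pass the filter through darkness alone, and these 2 shares describe the 37 only.

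The ends were not alike. In the deletion strain 13 of 14 ends had a median log2 fold change below 0 in light, and in the parent 9 did, 4 were above 0 and the last end of series D was at 0. The last end of series A had the lowest medians, -3.74 in the parent and -4.93 in the deletion strain, with 11 and 14 of 16 tested IDs falling and none rising. Over all tested IDs 20.4% fell in the parent and 22.7% in the deletion strain, and the counts per end are of tested IDs. The first end of series B was at -3.16 and -3.95, with 9 and 11 of 12 tested IDs falling. The first end of series G was at -3.39 and -3.67, with 6 and 8 of 10 falling. At the last end of series C, 7 and 12 of 15 fell, with medians of -2.09 and -4.0.

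Other ends showed little change or the opposite. The last end of series E was the only one of the 14 with a median above 0 in both strains, at 0.19 and 0.29, and 5 of its 11 tested IDs rose in each strain. Over all tested IDs 18.3% rose and 20.4% fell in the parent, and 20.3% rose and 22.7% fell in the deletion strain. The first end of series F was at -0.07 and -0.31 and had 9 tested IDs. The first end of series A was at 0.49 in the parent and -0.67 in the deletion strain. The first end of series C was at 0.34 in the parent, where 4 of 13 tested IDs rose and 5 fell, and at -2.45 in the deletion strain, where 7 fell and 2 rose.

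**Figure D4:**
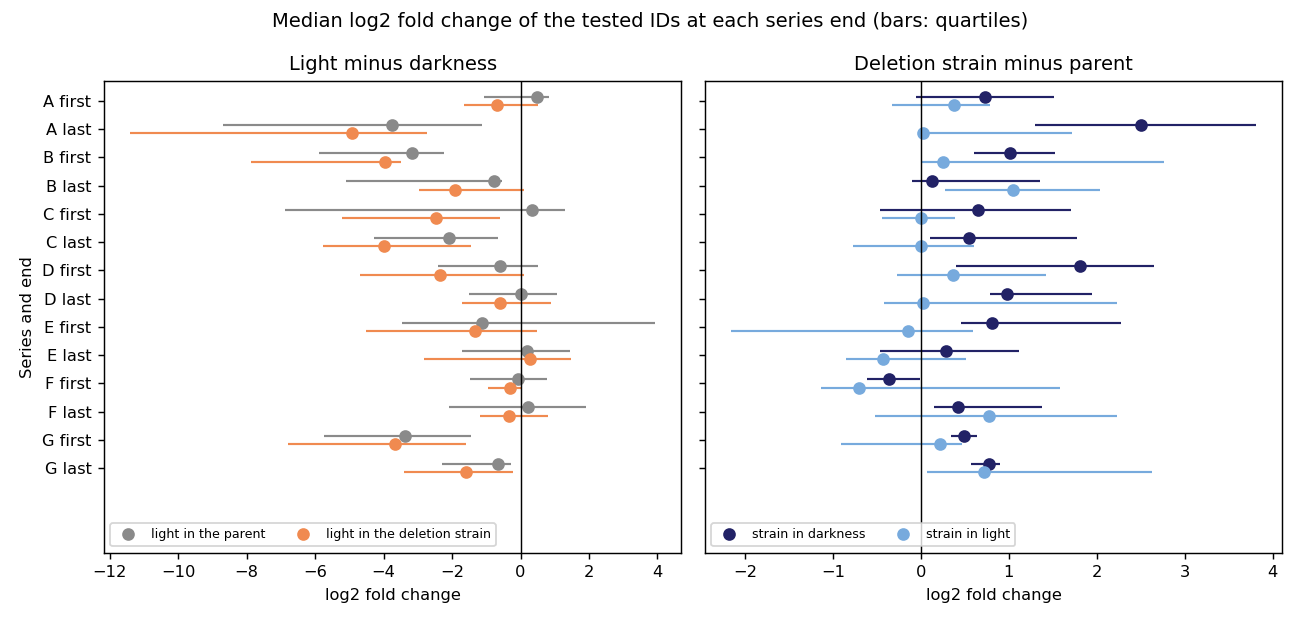
Median log2 fold change of the tested IDs at each of the 14 series ends, with bars from the lower to the upper quartile, for light minus darkness (left) and deletion strain minus parent (right). In light 13 of 14 medians of the deletion strain lie below 0, and in darkness 13 of 14 strain medians lie above 0.

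Summed levels of the 20 IDs per end also differed between ends. The sum was lower in every light library than in every dark library at 8 ends in the parent and 10 in the deletion strain, higher at 3 and 1, and overlapping at 3 in each. In the parent the last end of series G stood at 5842 ± 1241 CPM (SD, n = 2) in darkness and at 71.8 ± 6.64 CPM (SD, n = 3) in light, and in the deletion strain at 12002 ± 7382 and 68.2 ± 14.4 CPM (SD, n = 3 each). The first end of series G went from 1794 ± 200.3 to 95.1 ± 13.5 CPM and from 2743 ± 951 to 66.8 ± 7.52 CPM. Most of this was TrG0019C, at 1058 and 1524 CPM in the parent in darkness and 4.06, 3.89 and 5.04 CPM in light. Sums at the last end of series B, where TrB1968W lies, went from 688 ± 173 to 231 ± 13.8 CPM in the parent.

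The last end of series D was the end with a higher sum in light in the deletion strain, at 2082 ± 819 CPM in darkness and 3662 ± 819 CPM in light (SD, n = 3 each), most of it TrD1440W. The last end of series F had a higher sum in light in the parent, at 76.1 ± 0.64 CPM in darkness (SD, n = 2) and 259.8 ± 62.8 CPM in light (SD, n = 3), whereas its ranges overlapped in the deletion strain at 94.5 ± 4.89 and 95.9 ± 6.91 CPM. The difference between the strains in this sum was not tested.

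Along the series, light responses of this size were not limited to the ends. Each series was divided from both ends into windows of 20 IDs, with shorter windows left in the middle, and 544 windows had at least 5 tested IDs. Of the 14 windows with the lowest median log2 fold change in light, 4 were end windows in the parent and 6 in the deletion strain. The lowest of all lay inside series E in both strains, near serial number 661, at -8.02 and -7.33. It was one of the shorter windows in the middle of a series, and its medians rest on 8 tested IDs. Inner windows of series D, at -3.53 and -3.32, and of series A, at -3.46 and -3.20, were also among the 8 lowest in both strains.

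**Figure D5:**
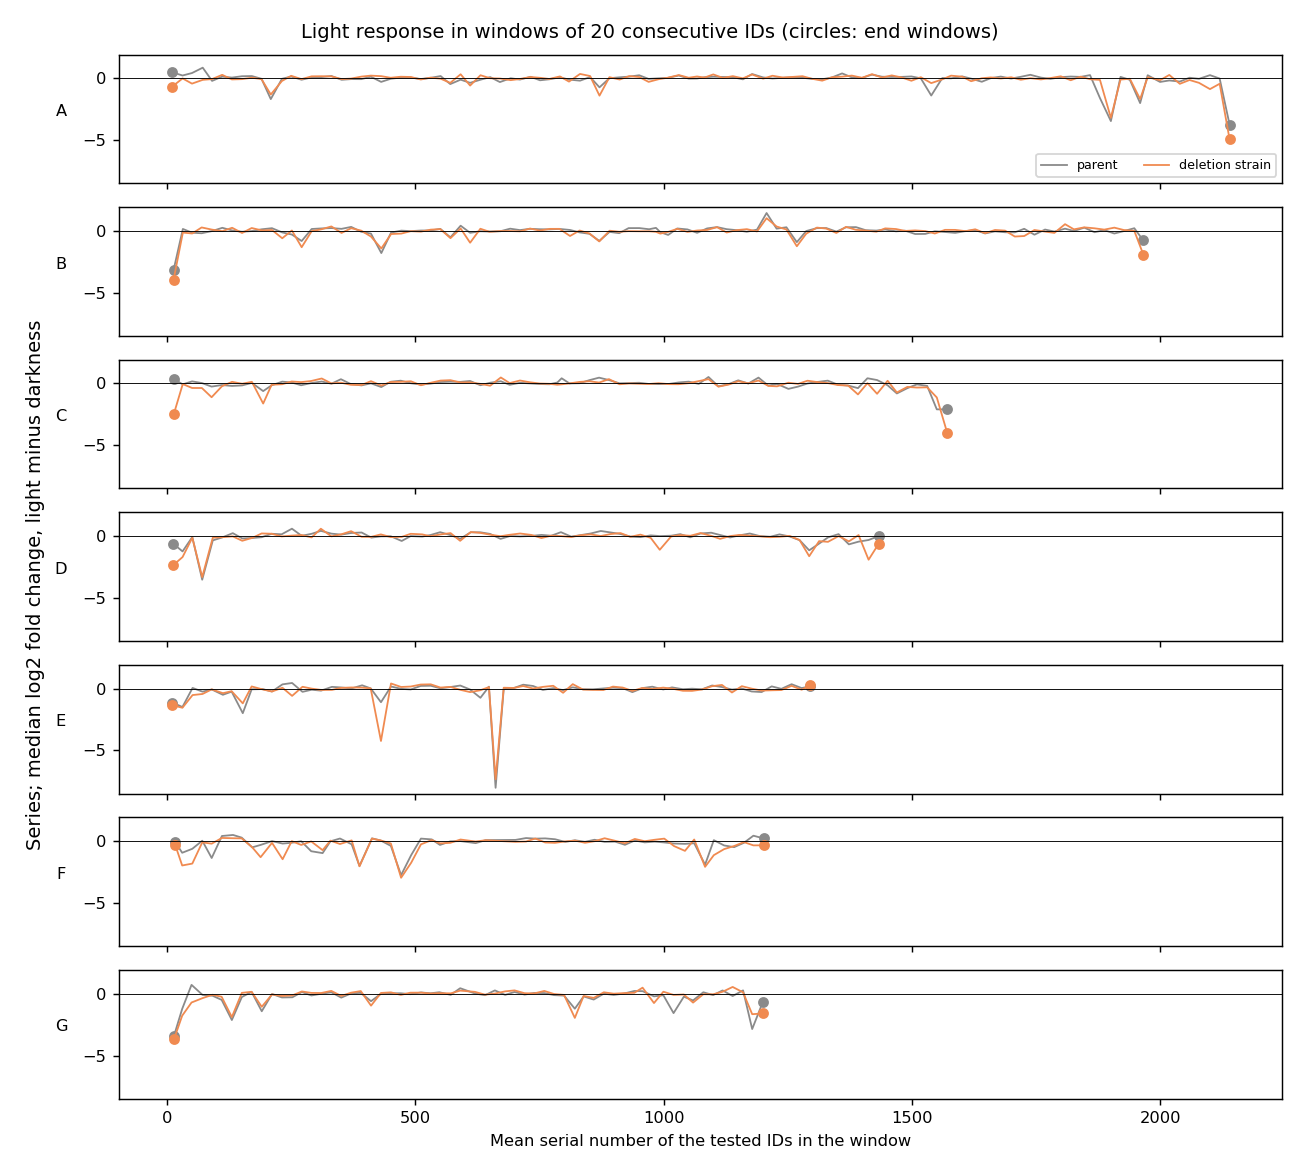
Median log2 fold change in light over windows of 20 consecutive IDs, shorter in the middle of a series, for the parent and the deletion strain, along each of the 7 series (horizontal axis, mean serial number of the tested IDs). Circles are the end windows. Most inner windows lie near 0, and the last end of series A reaches -4.93 in the deletion strain. The lowest window, a shorter one with 8 tested IDs, lies inside series E at -8.02 in the parent.

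In darkness, end IDs were more often higher than lower in the deletion strain. Over all 280, the mean CPM was higher in the deletion strain for 191, lower for 54 and at 0 in both strains for 35, whereas 51.0% of the remaining IDs were higher and 44.9% lower. At least 4-fold higher were 23.9% of end IDs and 7.54% of the remaining IDs, and at least 4-fold lower 3.21% and 1.79%. Of the 189 tested, 34 passed, or 18.0%, where 12.2% of all tested IDs did. Of these 28 rose and 6 fell. The rising ones were 14.8% of the tested end IDs against 7.25% of all tested, and the falling ones 3.17% against 4.97%. The median log2 fold change was 0.73, against 0.01 for all tested IDs, and 13 of 14 ends had a median above 0. Ranges did not overlap for 95 of 189, or 50.3%, against 42.8% of all tested. This comparison shares the parent libraries in darkness with the light comparison in the parent, and the deletion libraries in darkness with that in the deletion strain.

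The number of end IDs that passed in darkness depended on single libraries. It was 13 without parent replicate 1, 10 without parent replicate 2, 19 and 20 without deletion replicates 2 and 3, and 60 without deletion replicate 1, of which 9, 7, 16, 17 and 55 rose. The share of all tested IDs that passed was 4.22%, 6.25%, 7.77%, 7.79% and 15.9% in the same fits. Without parent replicate 2 the share of end IDs, 4.98%, lay below that of all tested IDs. With only the 5 dark libraries in the fit 11 end IDs passed, or 5.88%, against 2.64% of all tested IDs. With DESeq2 54 passed, or 28.6% against 18.9%.

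The last end of series A held both of the strongest increases in darkness. TrA2130C, at the 20th place from the end, stood at 0.324 and 0.220 CPM in the parent and at 26.5, 37.0 and 45.6 CPM in the deletion strain, a log2 fold change of 7.0 with an SE of 0.65 (edgeR adjusted p = 0.000362). TrA2136C stood at 0.324 and 0.293 CPM and at 12.3, 14.6 and 8.60 CPM, a log2 fold change of 5.21 with an SE of 0.42 (edgeR adjusted p = 0.00052). The groups were far apart for both IDs, including deletion replicate 1. At this end 5 of 16 tested IDs rose and none fell, where 7.25% and 4.97% of all tested IDs did. The median log2 fold change of the end was 2.5, and its summed level was 106 ± 25 CPM in the parent (SD, n = 2) and 657 ± 239.9 CPM in the deletion strain (SD, n = 3).

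TrE1298C and TrB1970W fell most in darkness. TrE1298C stood at 29.3 and 25.9 CPM in the parent and at 1.01, 2.64 and 2.28 CPM in the deletion strain, a log2 fold change of -3.81 with an SE of 0.46 (edgeR adjusted p = 0.00138). TrB1970W stood at 14.8 and 10.2 CPM and at 2.15, 1.44 and 1.14 CPM, a log2 fold change of -2.97 with an SE of 0.58 (edgeR adjusted p = 0.013). The latter missed the threshold without parent replicate 1, at an edgeR adjusted p of 0.081, the highest among its alternatives.

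In light, the share of tested end IDs that differed between the strains lay near that of all tested IDs with all 11 libraries fitted. Of the 189 tested, 58 passed, or 30.7%, where 27.0% of all tested IDs did. Of these 34 rose and 24 fell in the deletion strain, 18.0% and 12.7% of the tested end IDs against 13.9% and 13.1% of all tested. The median log2 fold change was 0.16, against 0.00, and 0.01 with no filter and 248 end IDs tested. With voom 19.6% of end IDs passed, below the 22.6% of all tested IDs. With the light libraries fitted alone, 101 end IDs were tested and 49.5% of them passed, above the 35.5% of all tested IDs. Over all 280 end IDs, 125 had a higher and 90 a lower mean CPM in the deletion strain, and 65 were at 0 in both. At least 4-fold higher were 19.6% of end IDs and 7.45% of the remaining IDs, and at least 4-fold lower 11.8% and 4.83%. Ranges did not overlap for 85 of 189, or 45.0%, against 49.6% of all tested. With only 10 IDs per end, 19 rose and 6 fell among 80 tested, and at places 1 to 5 there were 8 rising and none falling among 37.

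TrD1440W and TrD1438C, near the end of series D, rose most in the deletion strain in light. TrD1440W stood at 67.3, 462 and 843 CPM in the parent and at 2406, 2675 and 3768 CPM in the deletion strain, a log2 fold change of 2.69 with an SE of 0.77 (edgeR adjusted p = 0.0312). TrD1438C stood at 11.4, 57.9 and 104 CPM and at 316, 345 and 412 CPM, a log2 fold change of 2.63 with an SE of 0.73 (edgeR adjusted p = 0.0279). The parent libraries spread about as widely for both, and parent replicate 1 was the lowest each time. Each change missed the threshold without parent replicate 2, without each deletion library grown in light in turn and with the light libraries fitted alone, at edgeR adjusted p up to 0.11 and 0.0827.

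TrF1202W and TrC0018C fell most in the deletion strain in light. TrF1202W stood at 16.9, 24.5 and 39.7 CPM in the parent and at 0.270, 0 and 1.14 CPM in the deletion strain, a log2 fold change of -5.84 with an SE of 0.91 (edgeR adjusted p = 0.00202). TrC0018C stood at 218, 156 and 118 CPM and at 11.8, 12.4 and 7.57 CPM, a log2 fold change of -3.95 with an SE of 0.40 (edgeR adjusted p = 0.000221). Neither change missed the threshold in any of 21 alternatives, with edgeR, DESeq2 or limma adjusted p up to 0.0134 and 0.00191.

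The strain effect differed between light and darkness for 20 of 189 tested end IDs by the interaction test, or 10.6%, where 10.8% of all tested IDs passed. In 5 the strain effect was more positive in light and in 15 more negative, 2.65% and 7.94% of the tested end IDs against 5.37% and 5.42% of all tested. The median log2 interaction was -0.52, against -0.02 for all tested IDs. Without parent replicate 1 in darkness 6 end IDs passed, or 3.02% against 4.18% of all tested IDs. Without deletion replicate 1 in darkness 30 passed, or 16.2% against 13.1%, and with DESeq2 43 did, or 22.8% against 17.0%. End IDs thus lay above the share of all tested IDs in some fits and below it in others.

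Replicates of end IDs spread more than those of other IDs. The median SD of log2 CPM between replicates was 0.36 to 0.49 for tested end IDs in the 4 groups and 0.12 to 0.20 for the remaining tested IDs. Counts of end IDs that pass a test therefore rest on wider error than the same counts over all IDs, and the part of their lower level in this was not tested. Whether the replicates were grown as separate cultures is not in the labels, and the p-values cover the spread between these libraries alone, which may be technical.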

How the data were processed

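Per the labels' protocols, a kit for plant RNA was used on the mycelium, and stranded libraries were made after rRNA depletion. Alignment with HISAT2 2.2.1 is recorded per the submitters' processing notes, and how the counting treated strand and reads with several matches is not given there. The deposited table holds read counts per gene ID, not normalized, for 11 libraries in 4 groups. Its 3 mat1-1 rows lie outside the lettered series. Another mutant named in the design text was not analysed here.

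The members and comparisons were chosen with earlier results of these data known. All 11 libraries entered 1 fit in edgeR 4.0.16 (R 4.3.3) with a mean per group, filterByExpr, TMM scaling and the robust quasi-likelihood test, and p-values were adjusted by Benjamini-Hochberg over all 9040 tested IDs, with a threshold of 0.05. Rose and fell refer to this threshold. In each comparison the 2 rising and 2 falling end IDs with the largest log2 fold change were named, if they passed, averaged at least 5 CPM and had group ranges that did not overlap, the last not asked of the interaction. The 3 most abundant end IDs and those over 50% of the CPM of their end were also named. The scripts were tested on simulated data, with changes set only in IDs averaging at least 5 CPM and 1 common spread for all IDs. That test does not cover IDs as low or as variable as many end IDs. The fit was repeated with 3 other scalings, with DESeq2 1.42.0, with voom (limma 3.58.1), with other filters, only the groups compared, a replicate block, 10 or 40 IDs per end, each library left out and, added after seeing the data, equal depth and the 3 most abundant IDs left out.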

Additional observations from a re-analysis of the deposited data

Results flagged for a closer look

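For 4 named end IDs the strain effect in light differed from that in darkness by the interaction test. Values are log2 differences of the strain effect, light minus darkness, from edgeR with adjustment over all tested IDs.

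TrC0018C was at -4.49 (SE 0.57, edgeR adjusted p = 0.0024). In the parent it stood at 21.3 and 30.1 CPM in darkness and 218, 156 and 118 CPM in light, and in the deletion strain at 20.6, 40.5 and 51.2 CPM in darkness and 11.8, 12.4 and 7.57 CPM in light. It thus rose in light in the parent and fell in the deletion strain, and it passed in all 20 alternatives, with an adjusted p up to 0.0194.

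TrF1202W was at -7.22 (SE 1.83, edgeR adjusted p = 0.0383), and it missed the threshold in 11 of 20 alternatives, with an adjusted p up to 0.288 without deletion replicate 2 in darkness. Its counts were near the floor in every group other than the parent in light.

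TrE0009C was at 3.60 (SE 0.70, edgeR adjusted p = 0.0128). It stood at 28.2 and 8.13 CPM in the parent and 20.4, 27.0 and 27.0 CPM in the deletion strain in darkness, and at 0.451, 0.607 and 0.336 against 6.49, 7.47 and 9.43 CPM in light. The strains overlapped in darkness and not in light, and 1 of 20 alternatives missed the threshold, voom in limma at an adjusted p of 0.177.

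TrA0009W was at 3.62 (SE 0.86, edgeR adjusted p = 0.0294). It stood at 29.4 and 12.8 CPM in the parent and 47.0, 15.2 and 15.2 CPM in the deletion strain in darkness, and at 0.338, 0.486 and 0.784 against 7.48, 8.79 and 8.50 CPM in light. In 8 of 20 alternatives it did not pass, namely with voom and in the fits without parent replicate 1 in darkness and without each light library in turn, with an adjusted p up to 0.238.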

How the results depend on the processing

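No named log2 fold change and no median over the end IDs changed sign under the alternatives run. For strain in light, falling IDs outnumbered rising ones without parent replicate 2 in light, at 19 against 16. The falling share of light calls was 67.6% to 84.0% in the parent and 79.0% to 89.5% in the deletion strain over all settings. The share of tested end IDs that passed ran, with single libraries left out, from 4.98% to 32.4% for strain in darkness, 17.8% to 35.7% for strain in light, 34.7% to 61.6% for light in the parent, 53.5% to 69.8% for light in the deletion strain and 3.02% to 16.2% for the interaction. The shares of all tested IDs ran from 4.22% to 15.9%, 15.9% to 34.1%, 25.7% to 45.0%, 31.5% to 44.3% and 4.18% to 13.1% in the same fits. The corresponding median log2 fold changes ran from 0.64 to 0.85, 0.11 to 0.28, -1.35 to -0.91, -1.99 to -1.55 and -0.64 to -0.36. In what follows the share of all tested IDs stands in brackets. DESeq2 gave 28.6% (18.9%) for strain in darkness and 22.8% (17.0%) for the interaction. Voom gave 19.6% (22.6%) for strain in light, 39.2% (35.1%) for light in the parent and 5.82% (8.84%) for the interaction, so that end IDs lay below all tested IDs in the first and the last. With only the groups compared, 5.88% (2.64%) passed for strain in darkness and 49.5% (35.5%) for strain in light, where 101 end IDs were tested, and the median for light in the parent was -0.64. Scaling by library totals alone gave a median of -1.60 for light in the deletion strain, where the median of all tested IDs moved to 0.19, 17.2% of all tested IDs fell and 34.5% rose, while 99 end IDs fell and 25 rose. With 10 IDs per end the medians were 0.96, 0.49, -2.54, -2.29 and -0.28 in the order above, 20.7% of IDs were at 0, and the shares of counts were 0.593% in the parent in darkness, 0.107% in the parent in light and 0.44% in the deletion strain in light. With 40 IDs per end the medians were 0.52 for strain in darkness, -0.61 and -1.08 for light in the parent and the deletion strain, and 6.96% of IDs were at 0. The shares of counts were then 2.55% over all libraries, 2.95% and 4.89% in darkness and 1.15% and 1.34% in light, parent first. Without the 3 most abundant IDs the mean shares were 0.441% and 0.76% in darkness and 0.217% and 0.24% in light. Leaving out single libraries gave shares of 0.781% to 1.03% over all libraries, 0.877% to 1.14% and 1.66% to 2.61% in darkness and 0.244% to 0.284% and 0.515% to 0.594% in light, and 11.4% to 12.1% of IDs at 0. The causes of these differences were not tested.

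Same-numbered libraries were not shown to pair. Of 15 such pairs 4 correlated above 0.1 in their deviations from group means, with r from -0.38 to 0.26, and not every library correlated best with its own number. Deviations of the 2 parent libraries in darkness mirror each other, so pairs with them cannot decide this. In light the same-numbered pairs of the strains were at 0.16, 0.004 and 0.16, and the other pairs at -0.17 to 0.05. With the replicate block 10.6% of tested end IDs (6.97%), or 20, passed for strain in darkness. At a median level of 1.55 CPM, many end IDs lie near the floor of 3 counts in the shallower light libraries. With libraries thinned to equal depth, 71 of 183 tested end IDs fell in light in the parent and 100 in the deletion strain, where 19.8% and 22.2% of all tested IDs did.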
